A study of Mus musculus with 2 samples.

Results

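The 38 genes described here are a list of DNA damage response and repair genes, and all of them, of 37458 genes in the mouse annotation with at least 1 measured cytosine, were covered. Their CpG cytosines were those listed in both libraries with at least 10 reads, from 5000 bp before to 5000 bp after each gene in the genome build GRCm38, and there were 5303 of them.

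The DNA came from peripheral blood cells of mice. The assay was reduced representation bisulfite sequencing (RRBS): MspI cuts DNA at CCGG, and bisulfite then turns unmethylated cytosines into bases read as T. A WT library was compared with a library from mice in which I-PpoI was expressed specifically in kidney proximal tubular epithelial cells. I-PpoI, a homing endonuclease, cuts both strands of DNA at its recognition sequence, and the cells measured were of another tissue than the cells labelled as expressing it. The labels do not state the promoter driving I-PpoI, the strain, the age, the sex or the number of animals behind a library. Each group had 1 library, so a test on reads compares these libraries and not the conditions, and no difference had a replicate check.

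Cells meet a double-strand break with a sensor complex (Mre11, Rad50, Nbn) that activates the kinase Atm, while Atr answers to exposed single-stranded DNA. Both signal through H2ax, the adaptors Mdc1 and Trp53bp1, the checkpoint kinases Chek1 and Chek2, and p53. The break is then joined directly (Xrcc5, Xrcc6, Prkdc, Xrcc4, Lig4) or copied from the sister chromatid (Brca1, Brca2, Palb2, Rad52), and other pathways mend damaged bases and mismatches. Most of these are housekeeping genes with CpG island promoters, and such islands are as a rule unmethylated in normal cells, while the gene body is methylated. Silencing of MGMT, a repair enzyme for alkylated guanine, by promoter methylation is a well-known event in tumours.

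Promoter sequences of 33 of the 38 genes, from 250 bp before to 50 bp after an annotated start, were taken from RefSeq (GRCm38.p6). Of these 300 bp sequences, the members' had a median of 20 CpGs, against 7 over all 27025 promoter sequences of the table. The following 5 are those that the results turn on: the promoters with the largest differences (Mre11a, Fanca and Mgmt), the promoter with a cytosine that rose (Pms2), and the start of Cdkn1a that holds its measured promoter. They are written 5′ to 3′ in the gene's direction, and capitals mark the CpGs measured in both libraries on at least 1 strand.
Mre11a, chr9:14784404-14784703, plus strand: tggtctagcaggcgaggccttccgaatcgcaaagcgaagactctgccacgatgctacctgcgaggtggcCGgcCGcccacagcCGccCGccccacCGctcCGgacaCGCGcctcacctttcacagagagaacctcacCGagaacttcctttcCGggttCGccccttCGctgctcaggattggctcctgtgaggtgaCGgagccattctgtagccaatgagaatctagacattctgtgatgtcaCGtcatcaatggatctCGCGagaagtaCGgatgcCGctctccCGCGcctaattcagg
Fanca, chr8:123318527-123318826, minus strand: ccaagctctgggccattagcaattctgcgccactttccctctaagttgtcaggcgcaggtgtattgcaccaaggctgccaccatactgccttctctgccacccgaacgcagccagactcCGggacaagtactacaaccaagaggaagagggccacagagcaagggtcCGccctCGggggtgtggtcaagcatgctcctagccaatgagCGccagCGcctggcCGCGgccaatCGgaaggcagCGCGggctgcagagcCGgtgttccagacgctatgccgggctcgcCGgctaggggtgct
Mgmt, chr7:136894336-136894635, plus strand: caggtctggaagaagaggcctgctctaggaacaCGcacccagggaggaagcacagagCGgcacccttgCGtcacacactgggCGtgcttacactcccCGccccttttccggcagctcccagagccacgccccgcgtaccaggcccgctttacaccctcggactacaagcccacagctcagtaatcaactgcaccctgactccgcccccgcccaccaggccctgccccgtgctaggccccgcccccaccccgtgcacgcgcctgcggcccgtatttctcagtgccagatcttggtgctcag
Pms2, chr5:143909751-143910050, plus strand: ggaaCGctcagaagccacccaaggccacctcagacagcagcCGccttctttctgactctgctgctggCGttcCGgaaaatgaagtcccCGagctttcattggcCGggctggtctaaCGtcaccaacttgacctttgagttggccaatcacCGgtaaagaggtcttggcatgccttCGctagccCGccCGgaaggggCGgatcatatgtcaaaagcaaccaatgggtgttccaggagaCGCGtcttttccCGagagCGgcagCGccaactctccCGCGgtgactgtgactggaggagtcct
Cdkn1a, chr17:29093519-29093818, plus strand: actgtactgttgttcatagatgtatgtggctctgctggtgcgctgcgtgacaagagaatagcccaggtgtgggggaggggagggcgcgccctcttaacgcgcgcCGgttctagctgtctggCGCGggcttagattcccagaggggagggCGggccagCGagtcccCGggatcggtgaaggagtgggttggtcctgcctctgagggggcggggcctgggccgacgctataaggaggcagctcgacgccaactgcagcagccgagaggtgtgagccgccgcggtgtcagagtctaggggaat
All 19 CpGs of the Pms2 window and 20 of the 26 of the Mre11a window were measured, and in the Mgmt window they lay in the part farthest before the start. A CCAAT box, the letters CCAAT on either strand, was present in 19 of the 33 sequences (57.6%), among them those of Mre11a, Fanca and Pms2, and in 38.02% of all promoter sequences. The ETS letters CCGGAAG, which contain CCGG, were in 10 (30.3%, all promoters 9.14%), and the E2F letters TTTCCCGC in 5 (15.2%, all promoters 1.11%): Brca2, Chek2, Mdc1, Msh6 and Xrcc6. These matches describe letters and not binding.

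The start of another gene lay within 1000 bp on the opposite strand for 13 of the 33 genes (39.4%), against 12.7% of all promoters in the table. The start of Xrcc6, a subunit of the end-joining protein Ku, lay 149 bp from that of Desi1. The starts of Brca1 and Nbr1 were 152 bp apart, those of Trp53 and Wrap53 were 109 bp apart, and those of Mre11a and Ankrd49 were 81 bp apart. The level of these promoters therefore belongs to both genes of a pair.

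Median coverage was 53 reads over 3569384 cytosines in WT and 49 reads over 3141563 in I-PpoI. The mean level over the 3026647 shared cytosines used was 38.6% in WT and 37.1% in I-PpoI. Markers were checked mainly by their promoters. Those of 3 pan-leukocyte genes were unmethylated, with medians of 4.74% in WT and 3.02% in I-PpoI, and those of 7 proximal tubule genes were mostly methylated, at 89.5% and 85.4%. Of the 3 neutrophil marker promoters measured 1 was lower and 1 higher in I-PpoI (medians 64.8% and 46.6%). Of 3 monocyte marker promoters 1 was lower (medians 80.4% and 51.9%, median difference -3.18 points). Of 4 B cell and 2 T cell marker promoters none was called. Of 2 neutrophil marker bodies 1 was called lower (medians 82.5% and 70.4%), and no body of the other marker lists was called. The part of blood cell composition in the differences below was not tested.

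All 35 promoters measured were low in methylation in both libraries, and none was called changed. Of these, 29 were under 10% in WT and so could not be called lower. A promoter is here the stretch within 1000 bp of the start, and its level is the mean over its cytosines, each weighted equally. A region was called at an adjusted p under 0.01 (Cochran-Mantel-Haenszel chi-square test of the reads, stratified by cytosine, Benjamini-Hochberg over all genes) with a difference of at least 10 percentage points. Over all 22980 promoters tested, 2.48% were called lower and 0.318% higher in I-PpoI, but only 51.3% of those were under 10% in WT, against 82.9% of the members, so the shares are not a like comparison. The members' medians were 6.61% in WT and 5.90% in I-PpoI, with ranges of 2.68% to 19.1% and 1.57% to 18.6%. The median difference was -0.48 points, beside -0.69 over all genes, and 31 of 35 were below 0 (88.6%), as were 77.04% of all promoters. In 25 promoters the libraries lay within 1 point of each other, and in 34 within 5. A promoter had 868 to 18343 reads in WT and 810 to 16887 in I-PpoI, summed over its cytosines.

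**Figure D1:**
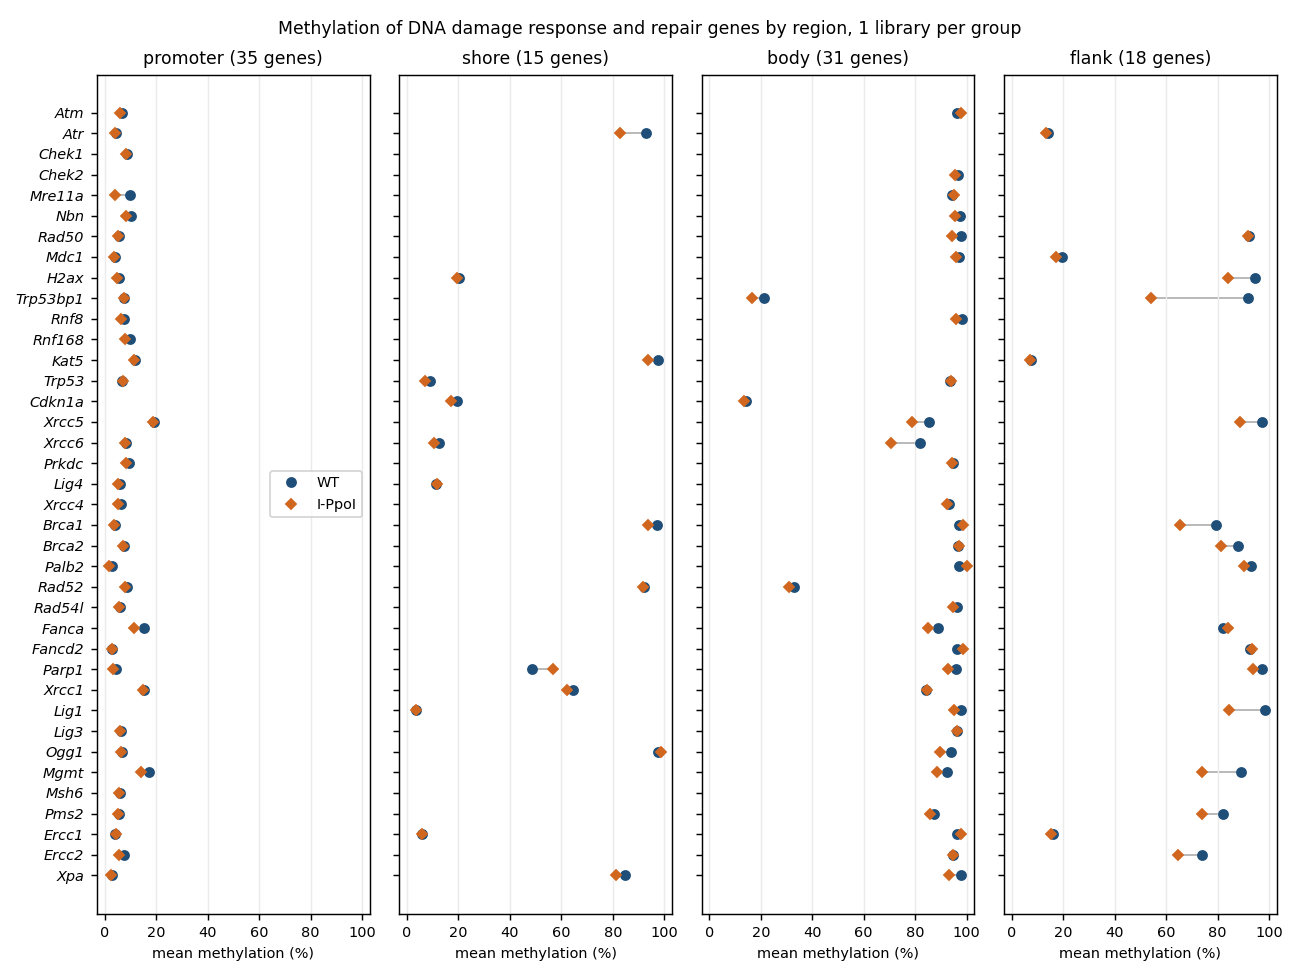
Mean methylation in percent (x axis) of each gene's promoter, shore, body and flank in the WT library (circles) and the I-PpoI library (diamonds); each point is 1 library, and a gene without a point had under 3 shared cytosines in that region. Promoters sit under 20% in both libraries, bodies mostly above 80%, and the widest gap is at the Trp53bp1 flank.

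Among the 13 genes of break sensing and signalling, 12 had a measured promoter, and their WT levels ran from 3.97% to 11.8%. The kinase genes Atm (6.60% in WT, 6.02% in I-PpoI) and Atr (4.54%, 4.14%) differed by less than 1 point. Chek1, the kinase that Atr activates, stood at 8.52% and 8.43%. Rnf8 and Mdc1 also lay within this range. H2ax, the histone variant phosphorylated at breaks, stood at 5.59% and 4.96% over 221 cytosines. Kat5, an acetyltransferase that acetylates Atm, was at 11.8% and 11.2%, a difference smaller than 1 point. Trp53bp1, which steers breaks towards end joining, was at 7.48% and 7.63%. In this group the libraries were furthest apart at Mre11a.

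The promoter of Mre11a, the nuclease of the sensor complex, had a mean level of 9.86% in WT and 4.10% in I-PpoI over 67 cytosines. The difference was -5.76 points (95% interval -7.48 to -4.04), with 47 cytosines lower and 6 higher (adjusted p = 1.4e-09, Mantel-Haenszel chi-square test), and it stayed under the 10 points needed for a call. Intervals here and below cover at most counting error, and they and the p-values take reads and cytosines as independent. Reads can be PCR copies and cytosines on a read are not independent, so intervals can be too narrow and p-values too small. The gap lay among the low cytosines. Of the 63 with a level under 25% in both libraries, 47 had at least 1 methylated read in WT and 7 in I-PpoI, and their means were 6.61% and 0.423%. On the forward strand alone the 32 low cytosines averaged 10.2% in WT, with 12 to 110 reads each, and 0.202% in I-PpoI. Those from 92 bp before to 187 bp after the start had only 12 or 13 reads in WT. Nearly all of these stood at 15.4% or 16.7%, so the same few reads can count at many cytosines. Those on the reverse strand, 31 in number, averaged 2.87% and 0.651%. The promoter's difference was -9.30 points on the forward strand and -2.12 on the reverse strand (adjusted p = 0.78, Mantel-Haenszel chi-square test). It shrank to -1.87 points over the 33 cytosines with at least 20 reads, and to -3.21 with pooled reads. The other subunits of the complex, Rad50 (5.42% and 5.04%) and Nbn (10.1% and 8.40%, difference -1.69, 95% interval -2.39 to -1.004), were closer. Rnf168, a ubiquitin ligase of the break response, went from 9.83% to 7.73%, a difference of -2.11 points.

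Trp53, the gene of p53, stood at 6.77% in WT and 7.16% in I-PpoI, which was the largest of the 4 rises, all under 1 point. No cytosine was shared at the most 5′ start of Cdkn1a, the cell cycle inhibitor that p53 induces. Around its second start, whose sequence is shown above, 106 cytosines averaged 6.094% in WT and 6.001% in I-PpoI. The p53 pair thus had unmethylated promoters with no difference as large as 1 point.

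The 5 end-joining promoters differed by -0.46 to -1.17 points, all on the side of most promoters of the genome. Xrcc5, the larger Ku subunit, had the highest level of all members, 19.1% in WT and 18.6% in I-PpoI over 16 cytosines. Prkdc, the kinase that Ku recruits, was at 9.63% and 8.46% over 133 cytosines. Lig4, the ligase of the pathway, was at 6.09% and 5.003%.

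In homologous recombination and Fanconi anaemia, 6 of 7 differences were below 0, beside the 77.04% of all promoters. Brca1 was at 3.93% and 3.57%, and Brca2, a tumour suppressor that acts in recombination, at 7.32% and 6.97%. Palb2, which bridges both, was at 2.68% and 1.57%. Fanca, a subunit of the Fanconi core complex that acts on crosslinks, went from 15.4% to 11.4% over 38 cytosines, a difference of -3.92 points (95% interval -5.21 to -2.63; adjusted p = 1.1e-23, Mantel-Haenszel chi-square test), with 33 cytosines lower and 3 higher. As in Mre11a the low cytosines carried it. Of 33 under 25% in both libraries, 32 had a methylated read in WT and 8 in I-PpoI, with means of 5.12% and 0.542%. The gap spanned the whole measured window, on both strands, and here too neighbouring cytosines can share reads.

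**Figure D2:**
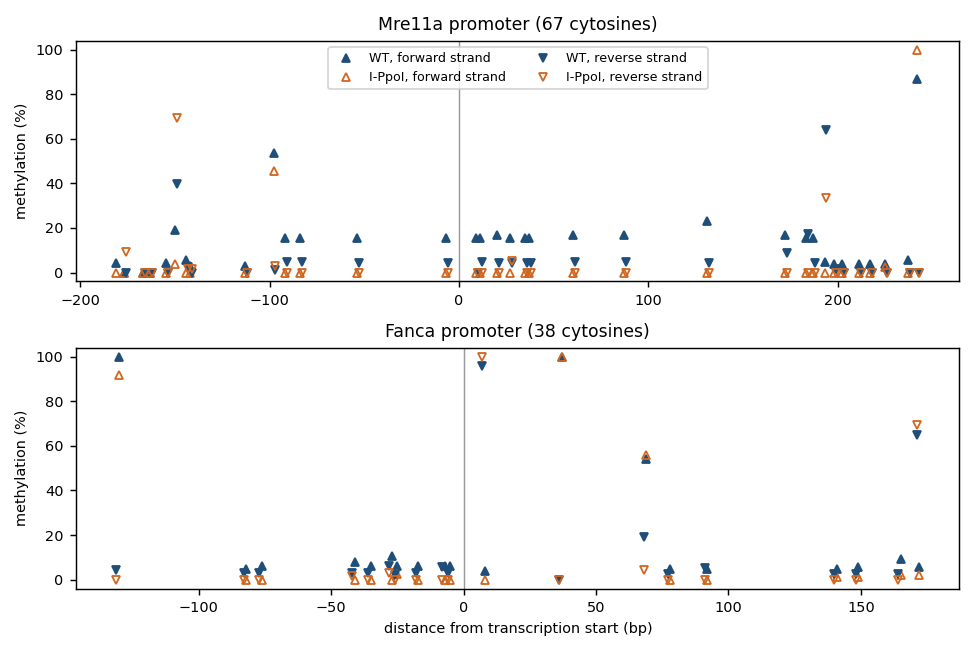
Methylation in percent (y axis) of each shared cytosine of the Mre11a and Fanca promoters by distance from the start in bp (x axis), in the WT library (filled) and the I-PpoI library (open), with the strand as the direction of the triangle. Low cytosines sit above 0 in WT (means 6.61% and 5.12%) and near 0 in I-PpoI (0.423% and 0.542%). Single cytosines reach 86.7% in WT and 100% in I-PpoI at Mre11a, and 100% in both libraries at Fanca.

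The promoters of excision and mismatch repair were as low. Parp1, which binds single-strand breaks, was at 4.34% and 3.37%. Xrcc1, its scaffold partner, was at 15.2% and 14.8%, and Ogg1, the glycosylase for oxidised guanine, at 6.61% and 6.22%. Lig1, the replicative ligase, had none at its most 5′ start, and 110 cytosines at its other starts averaged 3.37% and 3.58%. The mismatch genes Msh6 (6.12%, 5.65%) and Pms2 (5.63%, 5.34%) and the excision genes Ercc1 (4.17%, 4.20%) and Xpa (2.82%, 2.37%) differed by less than 1 point. Ercc2, a helicase of transcription factor TFIIH, went from 7.60% to 5.37% (adjusted p = 0.0054, Mantel-Haenszel chi-square test). Its 18 low forward-strand cytosines averaged 7.35% in WT and 0.186% in I-PpoI. Its 37 low reverse-strand cytosines averaged 1.79% and 1.14%. On the reverse strand alone the promoter's difference was -0.062 points (adjusted p = 0.59, Mantel-Haenszel chi-square test).

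Mgmt was the only member of direct reversal and had the second highest promoter level in WT. It went from 17.4% in WT to 14.2% in I-PpoI over 18 cytosines (difference -3.16 points, 95% interval -6.55 to 0.229; adjusted p = 0.0029, Mantel-Haenszel chi-square test). The 13 cytosines before the start were at 7.46% and 2.59%, and the 5 inside the gene at 43.3% and 44.6%. The Mgmt promoter was thus a low stretch beside a partly methylated one in both libraries.

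Low cytosines were lower in I-PpoI over the members and over all genes. Of the members' 3158 promoter cytosines, 2859 were under 20% in both libraries, with means of 1.68% in WT and 0.865% in I-PpoI. With reads thinned to equal coverage, 61.4% of them had no methylated read in WT and 77.3% in I-PpoI. In the promoters of all genes the means were 2.04% and 1.42%, and the shares 59.97% and 70.3%.

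A second feature of the promoters was methylation on a single strand. Of the 3158 cytosines, 2509 (79.4%) were under 5% in both libraries, and 137 (4.34%), spread over 33 genes, were at 50% or more in both. Of these, 133 had the CpG's other cytosine measured, and in 115 the other strand was under 20% in both libraries. These 137 carried 56.4% of the summed promoter level in WT and 64.2% in I-PpoI, and without them the mean fell from 6.93% to 3.16% in WT and from 6.11% to 2.29% in I-PpoI. In the members' own RefSeq promoter sequences all 16 promoter cytosines at 50% or more in both libraries lay at CCGG, the MspI site. Cytosines near the members, of any region, were then taken within the RefSeq promoter sequences of any gene. All 31 single-strand ones (50% or more against under 20% on the other strand) lay at CCGG. Yet CCGG held 13.2% of the 977 of them measured on both strands. Over all genes 11199 of 11202 single-strand cytosines (99.97%) lay at CCGG, beside 14.9% of all cytosines there. The cause of the pattern was not tested. With CpGs left out whose strands differed by 25 points or more, the members' median promoter level was 2.61% in WT and 1.70% in I-PpoI, 33 of 35 were under 10%, and none was called. Of the 6 promoters at 10% or more in WT, Mgmt (11.0%) and Xrcc1 (10.4%) stayed above it, and Xrcc5 was at 8.08%, Fanca at 4.84%, Nbn at 3.57% and Kat5 at 3.54%.

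**Figure D3:**
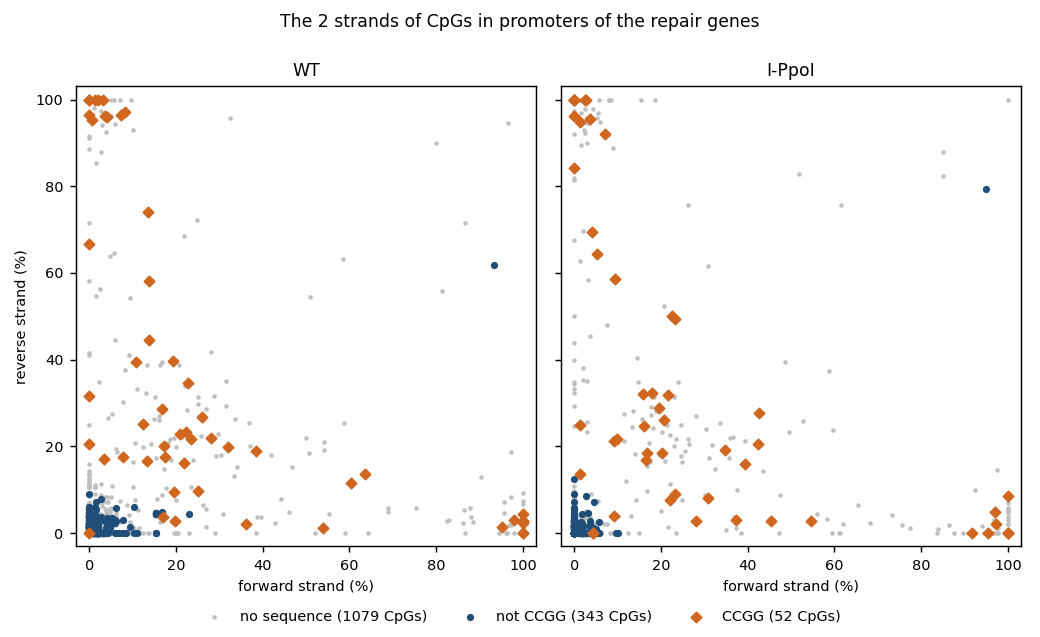
Methylation in percent of the forward (x axis) and reverse (y axis) cytosine of each of 1474 CpGs in the members' promoters, in WT (left) and I-PpoI (right); diamonds are CpGs at CCGG, circles CpGs elsewhere in the RefSeq sequences, and grey points lie outside them. CpGs near 100% on 1 axis and 0 on the other are diamonds or grey, and circles lie near the origin but for a single CpG that is high on both strands.

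Away from the start, methylation rose over the shore in both libraries. Over the members, mean levels in WT and I-PpoI were 11.2% and 10.4% in the first 250 bp of the gene, 18.1% and 15.6% at 1000 to 1500 bp, 73.0% and 69.7% at 2000 to 3000 bp, and 85.9% and 82.6% at 3000 to 5000 bp. Downstream of the start, 13 genes had a run of 3 cytosines averaging 50% or more, each at 20% or more, within 5000 bp in both libraries. The run began at the same cytosine in both libraries for all 13, at a median of 3229 bp. Upstream, 11 genes had such a run in both, and in 9 it began at the same cytosine, at a median of 2795 bp. Lig4 had an upstream run in I-PpoI alone, 86 bp from the start. These positions are those of measured cytosines, so the true edges can lie nearer to the start.

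**Figure D4:**
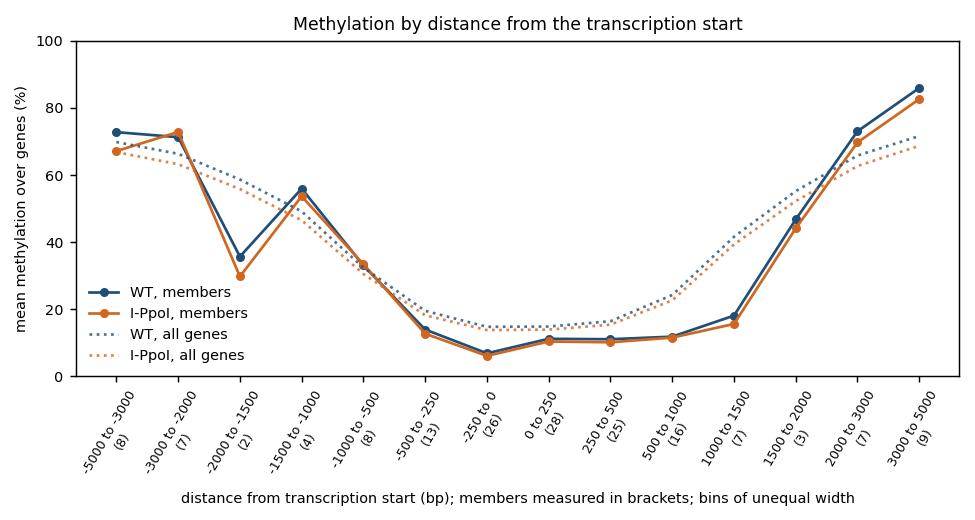
Mean methylation in percent over genes (y axis) by distance from the start in bp (x axis, bins of unequal width, number of members measured in brackets), for members (solid) and all genes (dotted) in WT and I-PpoI. Both libraries follow 1 course, near 10% around the start and above 80% in the members' last bin downstream, where 9 genes were measured.

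Of the 38 genes, 19 had no shared cytosine in a shore and 4 had under 3. None of the 15 shores tested (1000 to 3000 bp from the start) was called, beside 5.65% called lower and 0.592% higher over all 15716. The median difference was -1.75 points, and -1.37 over all genes. At Parp1 a stretch 2418 to 2556 bp before the start (chr1:180566335-180566473) was intermediate, at 48.7% in WT and 56.8% in I-PpoI over 10 cytosines (difference 8.12, 95% interval 1.94 to 14.3; adjusted p = 0.045, Mantel-Haenszel chi-square test). It was the largest difference upwards among the member regions tested and was not called. Shores of Brca1 (97.3%, 93.7%) and Kat5 (97.4%, 93.6%) were methylated, and those of Cdkn1a (19.4%, 17.1%) and Trp53 (8.85%, 7.10%) were not. The 12 shore cytosines of Cdkn1a lay around its own second start. For Trp53, 56 of 111 lay within 1000 bp of a start of Wrap53. All 110 of Lig1 and all 10 of Xrcc6 also lay that near a start of another gene. Xrcc1 (64.5%, 62.0%) and Xpa (84.5%, 81.4%) lay between or near the methylated ones. At Atr 3 cytosines went from 92.9% to 82.6% (adjusted p = 0.034, Mantel-Haenszel chi-square test). So a shore's level varied from gene to gene by more than it did between libraries, though some low shores held other starts.

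Gene bodies (inside the gene, over 3000 bp from the start) were methylated in both libraries. Of 31 tested, 28 were at 80% or more in WT, and the medians were 96.0% in WT and 94.4% in I-PpoI. The median difference was -1.12 points, and -1.74 over all genes. Xrcc6 alone was called lower, which is 1 of 31 (3.23%), beside 4.34% lower and 0.309% higher over all 17485 bodies. After it, the differences were largest in size for Xrcc5 (85.3%, 78.7%), Trp53bp1, Xpa (97.7%, 93.3%), Fanca (88.9%, 84.8%) and Ogg1 (93.8%, 89.8%), and none of these was called. No body cytosine was shared for 7 members. Chek2, which had no measured promoter, was at 96.5% and 95.6% in the body, and Mgmt at 92.5% and 88.5% over 192 cytosines.

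The Xrcc6 body averaged 81.7% in WT and 70.6% in I-PpoI over 13 cytosines (difference -11.1 points, 95% interval -15.9 to -6.37; adjusted p = 1.2e-04, Mantel-Haenszel chi-square test). Of these, 9 lay before the start used here, inside Desi1, at 96.6% and 91.5%. The other 4, at chr15:82023025-82023053, lay 6656 to 6684 bp after the start, at 48.3% and 23.6% with 19 to 28 reads in WT and 12 to 30 in I-PpoI. All 4 were lower in I-PpoI. The call was lost with at least 20 reads per cytosine (-7.49 points) and with the chi-square scaled by the spread between cytosines (adjusted p = 0.10).

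The bodies of 3 genes were low: Cdkn1a, Trp53bp1 and Rad52 (32.9%, 31.0%, 12 cytosines). Trp53bp1 stood at 21.1% in WT and 16.6% in I-PpoI. Of its 68 body cytosines 59 lay within 1000 bp of the start of Map1a, at 9.55% and 6.71%. These 59 lay 18158 to 18690 bp before the start used here, inside the annotated limits of the gene. The other 9 averaged 97.0% and 81.8%, and of these 7 lay 10018 to 10098 bp before that start and 2 after it. The Cdkn1a body was at 14.3% and 13.6%, and 173 of its cytosines, 3213 to 4691 bp after the most 5′ start and downstream of the second, averaged 6.69% and 6.48%. The 18 later ones averaged 87.8% and 82.0%.

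In the flanks 19 genes had no shared cytosine and 1 had under 3. The flanks (outside the gene, over 3000 bp from the start and up to 5000 bp from the gene) held the most calls. Of 18 tested, 4 were called lower (22.2%) and none higher, beside 5.1% lower and 0.34% higher over all 19129 flanks: Trp53bp1, Brca1, Lig1 and Mgmt. The median difference was -4.99 points, and -1.25 over all genes. Of 623 flank cytosines 424 lay within 1000 bp of the start of another gene. The flanks of Kat5 (7.61%, 6.95%), Atr (14.3%, 13.5%), Ercc1 (16.03%, 15.1%) and Mdc1 (19.6%, 17.4%) were low, and each held such starts. At Atr the 78 cytosines near the starts of Xrn1 and Gm16794 averaged 3.09% and 2.25%, and the other 11 averaged 93.7% and 93.0%. With the scaled test none of the flanks was called, and over all genes that test called 0.936%.

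**Figure D5:**
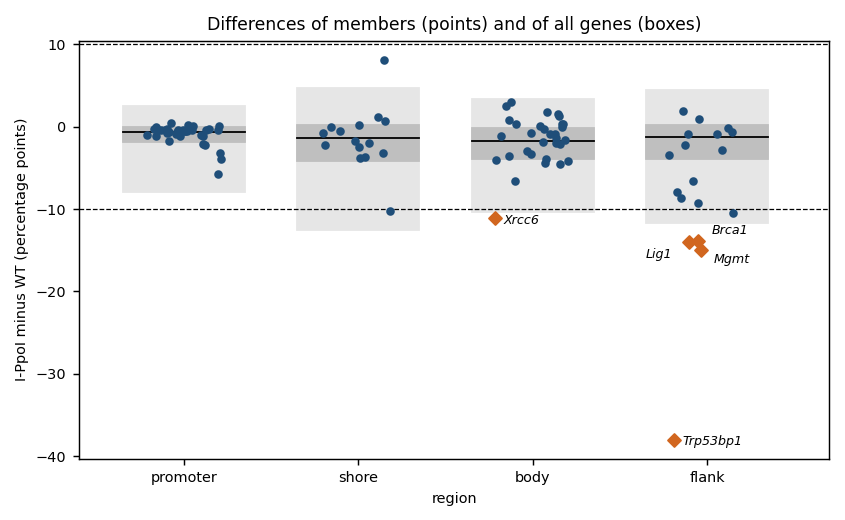
I-PpoI minus WT in percentage points (y axis) for each member region (points; diamonds are called and named) over all genes tested (light box 5th to 95th percentile, dark box middle 50%, line median), with dashed lines at 10 points either way. Promoters sit closest to 0, and the 5 called regions lie below -10, with Trp53bp1 lowest.

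The Trp53bp1 flank fell from 92.0% to 54.0% over 6 cytosines, 4425 to 4572 bp before the gene and inside Map1a (chr2:121300779-121300926). These cytosines lay 29372 to 29519 bp before the start used here. The difference was -37.985 points (95% interval -47.6 to -28.4; adjusted p = 3.1e-12, Mantel-Haenszel chi-square test). Coverage was 27 to 32 reads per cytosine in WT and 10 to 19 in I-PpoI. The cytosines did not move together: the first went from 93.1% to 11.1% and the last from 92.9% to 20%, while the third went from 100% to 89.5% and the fifth from 73.3% to 80%. So 5 of 6 were lower, by very unequal amounts.

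The Lig1 flank lay inside Pla2g4c, 1510 to 3064 bp after the gene, and fell from 98.6% to 84.6% over 15 cytosines (difference -14.0, 95% interval -18.1 to -9.93). A single CpG made most of it. Both cytosines of this CpG (chr7:13313180-13313181) were at 100% in WT, with 21 reads in all, and averaged 9.19% in I-PpoI with 119 reads. The next 5 cytosines, within 1869 bp of the gene, averaged 97.5% with 71 reads in WT and 96.4% with 299 in I-PpoI. The gap thus lay mainly at that CpG.

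The Brca1 flank, 3560 to 3726 bp after the gene (chr11:101485035-101485201), fell from 79.5% to 65.6% over 6 cytosines, of which 5 were lower (difference -13.9, 95% interval -20.01 to -7.77; adjusted p = 4.4e-05, Mantel-Haenszel chi-square test). Coverage was alike, at 31 to 73 reads in WT and 25 to 70 in I-PpoI. The Mgmt flank, 2109 to 2215 bp after the gene, fell from 89.1% to 74.1% over 4 reverse-strand cytosines (difference -15.0, 95% interval -25.5 to -4.48), with 10 to 27 reads in I-PpoI, and its call was lost at a minimum of 20 reads (-13.3 points).

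Flanks that were not called were led by H2ax (94.5%, 83.96%, 5 cytosines), Ercc2 and Xrcc5 (97.4%, 88.8%). At Ercc2 the mean went from 74.1% to 64.8% (difference -9.31, 95% interval -13.1 to -5.51; adjusted p = 4.0e-08, Mantel-Haenszel chi-square test). Its 8 cytosines 3902 to 3956 bp before the start, inside Ppp1r13l, went from 85.1% to 52.8%, all of them lower, while 6 after the gene went from 68.8% to 80.8%. Another 6, 4564 to 4637 bp before the start, were at 95.8% and 92.6%. The 6 after the gene had 13 to 26 reads each in I-PpoI. These stretches were picked after their values were seen, and the differences between them were not tested. Brca2 (88.1%, 81.5%) and Pms2 (82.1%, 74.1%) were also lower and not called.

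Of the 5303 single cytosines near members, 21 were called lower (0.396%) and 1 higher (0.0189%) in I-PpoI, by Fisher's exact test at an adjusted p under 0.01 and at least 25 points. Over all cytosines used the shares were 0.429% and 0.0561%. The 22 lay in 11 genes, with 13 in bodies, 6 in flanks, 2 in promoters and 1 in a shore, and 5 were in Mgmt and 6 in Trp53bp1. Of 15 with the other strand measured, 9 of the partners differed in the same direction and 3 by 25 points or more. Among those 3 are both cytosines of the Lig1 CpG, each as the other's partner, beside the Xrcc5 body (partner 89.1% in WT, 61.9% in I-PpoI). Beside the flank cytosines above, the largest were in the bodies of Prkdc (95.7% with 47 reads in WT, 25% with 16 in I-PpoI) and Fanca (71.3% with 80 reads, 12.5% with 16), both without a measured partner. At H2ax a reverse-strand cytosine 32 bp before the start went from 85.5% to 34.9% (95% Wilson intervals 73.8% to 92.4% and 22.4% to 49.8%), while its forward partner was at 1.55% and 0%. In Mgmt a cytosine 112404 bp into the gene went from 98.1% to 48.6%, and its partner from 94.6% to 86.1%.

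The only rise was at Pms2, which is named for that reason after its values were seen. A reverse-strand cytosine 146 bp before the start, at a CCGG, went from 17.5% (95% Wilson interval 11.2% to 26.3%, 97 reads) to 50% (40.1% to 59.9%, 94 reads), with adjusted p = 0.0011 by Fisher's exact test. The forward cytosine of the same CpG was at 17.5% and 22.6%.

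The other 95 genes of the pathway list were measured in the same way. None of their 91 promoters was called (all genes 2.48% lower and 0.318% higher), with a median difference of -0.52 points. Of the 91, 77 were under 10% in WT and so could not be called lower. Of 41 shores 5 were called lower (12.2%, all genes 5.65%), of 63 bodies 3 lower (4.76%, all genes 4.34%), and of 55 flanks 7 lower (12.7%, all genes 5.1%) and 1 higher (1.82%, all genes 0.34%). The largest were the shore of Xrcc2 (86.8% to 51.4%, 3 cytosines), the shore of Topbp1, an activator of Atr (70.8% to 58.6%), and the bodies of Ppm1d, a phosphatase that ends the p53 response (57.9% to 35.8%), and Uimc1, which binds ubiquitin at breaks (52.1% to 31.0%). The flank of Rpa1, which coats single-stranded DNA, fell from 75% to 44% over 5 cytosines, and that of Polb, the base excision polymerase, rose from 26.9% to 55.6% over 7. Of these 6 only Uimc1 was also called with the chi-square scaled by the spread between cytosines (adjusted p = 6.6e-04).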

How the data were processed

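RRBS libraries had been made with a Zymo-Seq kit, per the labels' protocols, and methylKit was used, per the submitters' processing notes. No aligner, genome build or duplicate removal was given in the sources used here. The deposited files list, per their headers, the count of reads over each cytosine and the percent of them read as C and as T. Percent times count was whole within 1e-06 at 100% of cytosines, so methylated reads were recovered. Of 424830 cytosines in RefSeq GRCm38.p6 promoter sequences, 99.9% fell on the C of a CG with no shift, and 0.0304% with a shift of 1 base down, so GRCm38 positions were used.

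Cytosines on autosomes and X with 10 or more reads in both libraries and not above the 99.9th percentile of coverage (284 reads in WT, 252 in I-PpoI) were kept. Starts were the most 5′ start in the promoter table (33 members) or the gene end with more cytosines. Regions needed 3 cytosines. The Cochran-Mantel-Haenszel and Fisher's exact tests were two-sided, adjusted by Benjamini-Hochberg over all genes or cytosines (Python 3.11.15, numpy 2.4.6, pandas 2.3.3, scipy 1.17.1). The first was run on simulated independent reads with -20 points put into 200 promoters and 200 bodies. It called 83% and 94.5% of them lower. No low promoter was among those changed, and shores, flanks and single cytosines were not simulated. Fisher's exact test was checked against that of scipy. Alternatives varied coverage, strand, pooling, a test scaled by the spread between cytosines, thinning, region sizes and thresholds. The use of the richest start, the removal of CpGs with unlike strands and the stretches described within regions were added after seeing the data. Members, lists and regions were chosen with earlier results of these data known. Genes were named if a member region was called, if among the 6 largest differences of a region kind (at least 5 cytosines and 100 reads), or if the promoter was at 10% or more; called single cytosines were named for the 10 largest, and at most 2 other pathway genes per region kind. Members are also named by role. Annotation of exons and introns was not used.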

Additional observations from a re-analysis of the deposited data

How the results depend on the processing

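No paired analysis was possible because each group had 1 library, and for the same reason no library could be left out. No promoter was called under any alternative except at a limit of 5 points, where 1 of 35 (Mre11a) was, beside 6.35% of all promoters. Of the shores, 1 was called with pooled reads (Xpa, -11.5 points). The count of bodies called, 1, became 0 with a minimum of 20 reads, on the reverse strand, with pooled reads, with the scaled test, after thinning and without CpGs of unlike strands, and 3 on the forward strand. The count of flanks called, 4, became 1 with a minimum of 20 reads (Brca1; Trp53bp1 and Lig1 then had too few cytosines), 2 of 16 on the forward strand, 6 of 17 on the reverse strand, 0 with the scaled test and 7 at 5 points. With pooled reads and after thinning it was again 4, but Mgmt lost its call (adjusted p from Fisher's exact test 0.017 with pooled reads) and Ercc2 gained one (-17.0 and -11.4 points). The Mre11a promoter moved from -5.76 points to -1.87 with a minimum of 20 reads, with no change of call. The 22 single cytosines called became 14 with a minimum of 20 reads, 10 on the forward strand, 12 on the reverse strand, 7 after thinning and 9 without CpGs of unlike strands; each of these settings keeps fewer reads or cytosines. The direction reversed on the reverse strand for the Mgmt promoter (3.37 points) and the Xrcc5 body (5.42), on the forward strand for the Rnf168 (0.0542) and Kat5 (0.327) promoters, without CpGs of unlike strands for the Xrcc5 promoter (0.195), and for the Brca2 flank with a minimum of 20 reads (3.11) and with pooled reads (0.839); the cause was not tested. Over all other named regions and settings, 311 values kept direction and call, 11 gained a call and 14 lost it. Over all genes the scaled test called 0.688% of promoters, 1.01% of shores, 1.20% of bodies and 0.936% of flanks, and pooled reads called 8.26% of bodies. The other counts of shores, bodies, flanks and single cytosines under alternatives stand here without such a share. They describe the settings and do not set the members apart from other genes.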

Other observations

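Cytosines near the members were not always listed in both libraries. Of those with at least 10 reads, 5304 were listed in both, 774 in WT alone and 137 in I-PpoI alone. Over the whole files WT listed 3569384 cytosines and I-PpoI 3141563, with 3030488 in both on autosomes and X. The imbalance was thus not particular to the members. Near the members, cytosines in WT alone had a mean level of 77.7%, and those in I-PpoI alone 28.4%. The ratio of I-PpoI to WT reads had a median of 0.933 over member promoters, 0.813 over shores, 0.689 over bodies and 0.698 over flanks. Over all genes these medians were 0.893, 0.796, 0.705 and 0.772, so methylated regions were covered less in I-PpoI there too. At the Lig1 flank the ratio was 2.47, and the next highest of the 18 flanks was at 1.03.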
